A study of Mus musculus with 9 samples.

Results

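The genes described here are 34 mouse genes for ionotropic and metabotropic glutamate receptors and for auxiliary subunits of AMPA receptors, taken from a set list of names. Each of the 34 was found in the 51912 genes counted in every library. They comprise AMPA (Gria), NMDA (Grin), kainate (Grik), delta (Grid1) and metabotropic (Grm) receptors, the transmembrane AMPA receptor regulatory proteins or TARPs (Cacng), the cornichons (Cnih2, Cnih3) and the CKAMP proteins (Shisa6, Shisa9). RNA came from cells of the hippocampus labelled as pyramidal neurons, from male mice of strain C57BL/6 with a Camk2a-Cre transgene, in which the Camk2a promoter, active in forebrain excitatory neurons, drives Cre. The adeno-associated virus rAAV5-DIO-mCherry gave Cre-expressing cells the red protein mCherry, and fluorescent cells were sorted 3 weeks after injection. The study used 3 doses, 2.88e+08, 2.88e+09 and 2.88e+10 vector genomes, with the lowest as control and 3 biological replicates per dose. An uninjected group was not analysed here, so the vector and the Cre allele are shared by the 9 libraries.

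The labels state the dose of none of the 9 libraries, S1001 to S1009. No comparison between doses was therefore made, and each gene is given by its value in each library, with no mean, SD or test over libraries. Levels are CPM, a count divided by the library's size, here scaled by TMM, a correction for library composition. The spread of a gene is the difference between its second highest and its second lowest library on the log2(CPM + 1) scale, and a gene is called uneven where that spread is at least 1, which is 2-fold. This scale understates the differences of low genes.

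Glutamate carries most fast excitation in the brain. AMPA, NMDA and kainate receptors are ion channels of 4 subunits, and metabotropic receptors act through G proteins. AMPA receptors carry the fast current, NMDA receptors admit calcium and are needed for many forms of synaptic plasticity, and kainate receptors modulate release and excitability. TARPs, cornichons and CKAMP proteins bind AMPA receptors and alter their trafficking and gating.

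A short coding stretch is shown first because it holds the site that sets the calcium permeability of AMPA and kainate channels. Each line gives 45 coding bases of the GENCODE M21 transcript, 5′ to 3′, with the codon at the Q/R position of the channel pore in capitals. Editing of RNA by adenosine deaminases can change this codon in some of these genes, as happens to nearly all Gria2 RNA in the adult brain. The sequences are those of the reference, and the counts carry no information on editing.
Gria1: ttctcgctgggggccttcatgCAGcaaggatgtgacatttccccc
Gria2: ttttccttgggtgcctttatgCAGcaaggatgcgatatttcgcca
Gria3: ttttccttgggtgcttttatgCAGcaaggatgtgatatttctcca
Gria4: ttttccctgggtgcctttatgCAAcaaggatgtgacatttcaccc
Grik1: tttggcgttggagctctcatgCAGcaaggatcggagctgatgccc
Grik2: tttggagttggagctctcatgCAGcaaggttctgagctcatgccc
The codon was CAG in 5 of the 6 genes and CAA in Gria4. Of the 45 bases, 42 in Gria3, 39 in Gria4 and 36 in Gria1 were identical to Gria2, against 29 in Grik1 and 27 in Grik2. On build mm10 the Gria2 codon lies at chr3:80706911-80706913 on the minus strand, in coding exon 11 of 16 exons. The Gria1 codon lies at chr11:57243094-57243096 on the plus strand, also in exon 11 of 16.

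Library totals ran from 12136830 to 19151596 counts, and 3 counts, the limit that a count of 0 allows, equal 0.158 to 0.246 CPM. The excitatory neuron list (7 of 7 genes found, none at 0 in any library) summed to between 1699.6 and 6016 CPM. Markers of other cells were present too. Those of microglia, the brain's resident immune cells, summed to 16901, 15762, 16249.7, 5554, 4378, 4479, 75.7, 133 and 26.1 CPM in S1001 to S1009 (10 of 10 found, none at 0). Inhibitory neuron markers summed to 447, 408, 429, 1972, 1039.6, 1743, 1684, 2168 and 711 CPM (11 of 12 found, Pvalb at 0 in a library). Oligodendrocyte markers summed to 588 to 612 CPM in S1001 to S1003 and to 30.9 to 154 CPM in the other libraries (7 of 7 found, none at 0). S1007, S1008 and S1009 had a count in 19261, 20255 and 17906 genes, against 23214 to 25478 in the other 6. Whole profiles fell into 3 sets by chi-square per degree of freedom over genes. Pairs within S1001 to S1003 gave 2.67 to 5.14, pairs within S1004 to S1006 gave 24.3 to 33.6, and pairs within S1007 to S1009 gave 27.2 to 38.9. Each pair across these sets gave 83.3 to 184. Even the closest pairs differed by more than sampling noise, and all 9 were kept. In such bulk samples, fewer cells of a type and less RNA per cell cannot be told apart.

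Of the 34 genes, 29 had a mean of at least 1 CPM, and 8 of these 29 were uneven (27.6%). Over all 14787 genes at that level, 3911 were uneven, which is 26.4%. The share among the glutamate receptor genes is thus near the background. The count fell to 4 of 29 (13.8%) without S1004, against 22.9% of all genes, and to 4 of 29 without S1009, against 21.6%. Their median spread was 0.69, against 0.66 for all genes. The 8 were Grik1, Grik5, Grm2, Grm4, Grm8, Cacng5, Cnih2 and Cnih3. None of the 4 AMPA genes and none of the 5 NMDA genes at 1 CPM was among them. In 14 of the 29 genes the highest library was less than 2-fold above the lowest on that scale. The other 15 (51.7%) reached 2-fold by this full range, near the 52.6% of all genes. Nearest to the threshold were Grm4 at 1.01 above it, and Grik4 at 0.97 and Shisa9 at 0.95 below it. The summed level of all 34 genes ran from 4396 CPM in S1005 to 7393 CPM in S1007, a ratio of 1.68.

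**Figure D1:**
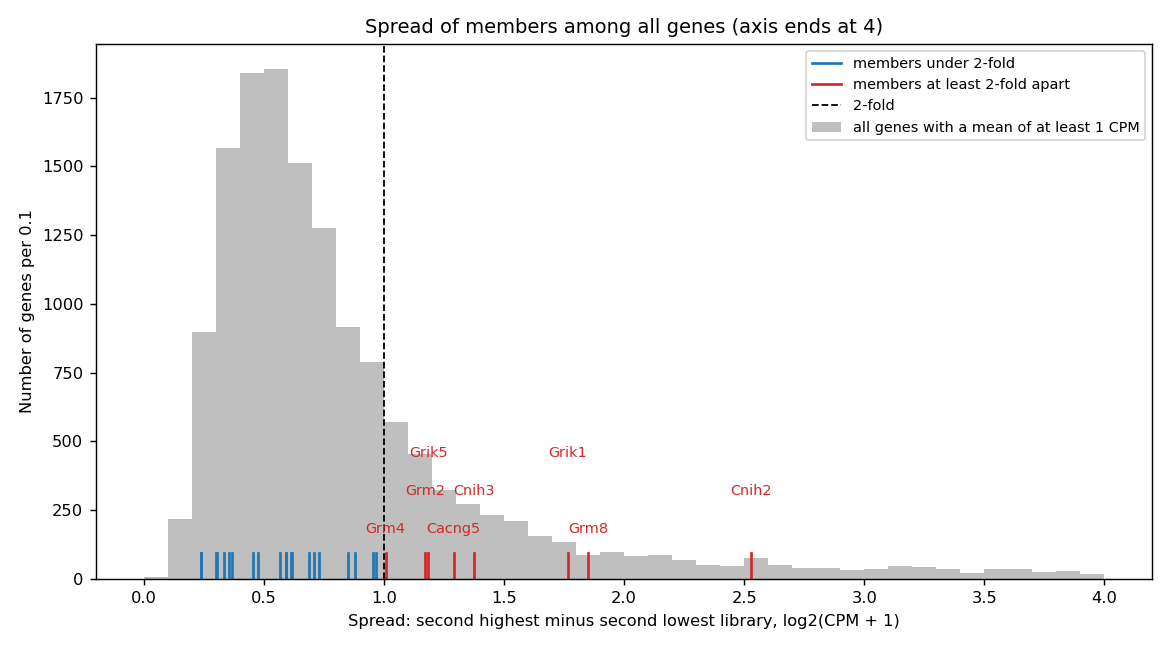
Spread of the 29 genes at 1 CPM or more (vertical ticks) among all 14787 genes at that level (grey histogram, number of genes per 0.1). The x axis is the spread on the log2(CPM + 1) scale, ends at 4 and has a dashed line at 2-fold; 8 ticks lie past the line, and Cnih2 at 2.53 lies farthest out.

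The AMPA receptor genes held similar levels in the 9 libraries. Gria2, whose edited subunit makes the channel impermeable to calcium, measured 1533, 1732, 1615, 1291, 1224, 1621, 1965, 1767 and 1686 CPM in S1001 to S1009. Its spread was 0.45, with S1004 and S1005 lowest and S1007 highest. Gria1, the subunit whose phosphorylation accompanies long-term potentiation, measured 871, 872, 885, 732, 675, 639.8, 1137, 1001 and 954 CPM. S1004, S1005 and S1006 were the 3 lowest for Gria1, and S1007 the highest, at 1.78 times the lowest. Gria3, which pairs mainly with the Gria2 product, measured 268, 307, 284, 249, 235, 298, 345, 280.3 and 269 CPM, with a spread of 0.30. Gria4, a subunit prominent in interneurons and in early development, was far lower, from 10.8 CPM in S1009 to 20.6 CPM in S1008.

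Levels of different genes can be compared only per length, and for this the deposited FPKM was used, which divides a count by gene length and library total. Gria1 held 43.5% to 53.5% of the summed AMPA FPKM (median 52.2%) and Gria2 35.8% to 42.8% (median 36.5%). Gria3 held 9.15% to 12.4%, and Gria4 at most 1.30%. The FPKM ratio of Gria1 to Gria2 was 1.46, 1.30, 1.41, 1.46, 1.42, 1.02, 1.49, 1.46 and 1.46 in S1001 to S1009. It thus lay within 1.30 and 1.49 in 8 libraries and was lowest in S1006, where the Gria1 and Gria2 shares nearly met. The order of these genes rests on the length used. The deposited values use the length of all exons, 6043 bases for Gria1 and 15548 for Gria2, whereas the longest coding sequences are 2721 and 2649 bases. Per coding length, Gria2 stood above Gria1 in 9 of 9 libraries, with median shares of 58.1% and 31.4%, while by FPKM Gria1 stood above Gria2 in 9 of 9.

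The obligatory NMDA subunit gene and both main partners of its product were abundant. Grin1, which codes for the subunit present in every NMDA receptor, measured 236, 210.4, 218, 189, 175, 149, 264, 263 and 318 CPM in S1001 to S1009. It was lowest in S1006 and highest in S1009, with a spread of 0.59. Of the Grin1 exon bases, 13.47% overlap another gene, and whether the counting used strand is not stated. Grin2a, the subunit that gains weight as synapses mature, measured 474, 515, 503, 417, 328, 515, 706, 507 and 424 CPM. Grin2b, whose product closes more slowly, measured 609, 546, 580.3, 564, 560.2, 502, 647, 514 and 703 CPM. Grin2a varied more between its extremes than Grin2b, with highest-to-lowest ratios of 2.15 and 1.40, though their trimmed spreads were 0.30 and 0.33.

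By FPKM the median shares of the NMDA family were 35.0% for Grin2a, 30.3% for Grin2b and 28.7% for Grin1. The FPKM ratio of Grin2a to Grin2b was 1.08, 1.31, 1.20, 1.02, 0.812, 1.42, 1.51, 1.37 and 0.837 in S1001 to S1009. By FPKM, Grin2a stood above Grin2b in 7 libraries, and S1005 and S1009 were the exceptions. Per coding length Grin2a stood above Grin2b in 2 libraries, S1006 and S1007, so that this order too rests on the length used. Grin3a, a subunit that lowers calcium entry, ran from 24.5 CPM in S1007 to 56.0 CPM in S1005. Grin2d, known from interneurons and early development, ran from 2.33 to 5.48 CPM. Grin2c and Grin3b stayed under 1 CPM. Grin2c, best known from cerebellar granule cells, reached 9 counts at most. Grin3b reached 11 counts at most and was at 0 in 5 libraries, and 32.13% of its exon bases overlap another gene.

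**Figure D2:**
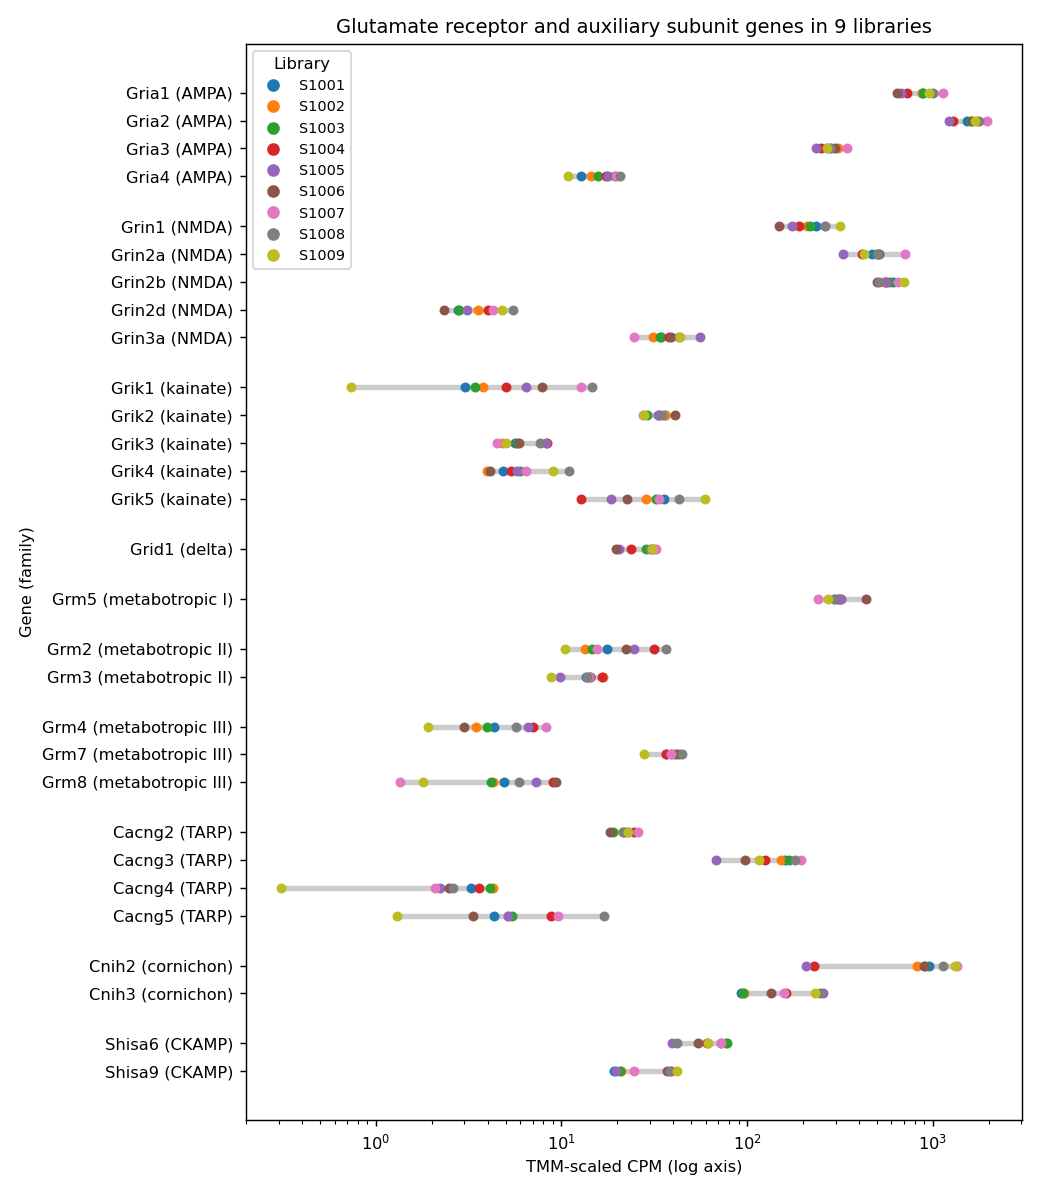
Level of each of the 29 genes at 1 CPM or more, by family. The x axis is TMM-scaled CPM on a log axis, each point is 1 library, and the grey line joins the lowest and the highest library; Gria2, Gria1 and Cnih2 reach the highest CPM, and Grik1, Cacng4 and Cacng5 have the longest lines.

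The kainate receptor genes were low beside the AMPA genes and included 2 uneven members. Grik1, which codes for a subunit known from hippocampal interneurons, measured 3.03, 3.76, 3.43, 5.00, 6.48, 7.85, 12.7, 14.6 and 0.740 CPM in S1001 to S1009. S1007 and S1008 were highest and S1009 lowest, on 239 and 12 counts at the extremes. The exact 95% Poisson intervals, which cover counting error only, were 12.8 to 16.5 CPM in S1008 and 0.382 to 1.29 CPM in S1009. The spread was 1.77, or 3.40-fold. Inhibitory neuron markers, given above, were likewise highest in S1008, and they were lowest in S1002, where they summed to 408 CPM. Their members differed, since in S1008 Gad1 was at its highest, 574 CPM, and Vip at its lowest, 0.305 CPM. Their part in the Grik1 levels was not tested.

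Grik5, which codes for a high-affinity subunit that needs Grik1 to Grik3 products as partners, measured 35.8, 28.4, 32.3, 12.7, 18.4, 22.6, 33.6, 43.1 and 59.6 CPM. It was lowest in S1004 and highest in S1009, the library in which Grik1 was lowest. The spread of Grik5 was 1.19, and it fell to between 0.90 and 0.92 when S1004, S1005, S1008 or S1009 was left out. The excitatory marker sum also had its lowest 3 libraries in S1004 to S1006, at 1981, 1869 and 1699.6 CPM, and its highest in S1009, at 6016 CPM. Nrgn alone made up 4203 of the 6016 CPM, and other members differed from the sum. Camk2a was lower in S1009, at 389 CPM, than in S1001 to S1003, at 562 to 584 CPM, and Tbr1 was highest in S1005, at 32.4 CPM. The part of that difference in Grik5 was not tested. Grik5 held 32.2% to 72.8% of the kainate FPKM.

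The other kainate genes stayed below 2-fold. Grik2, the main partner of Grik5 and Grik4 in pyramidal cells, ran from 27.5 to 40.8 CPM, with a spread of 0.37. Grik3 ran from 4.51 to 8.32 CPM. Grik4, a high-affinity subunit known from CA3, ran from 3.99 to 11.0 CPM, with a spread of 0.97. The FPKM ratio of Grik5 to Grik2 went from 0.972 in S1004 to 5.47 in S1009. Grik5 stood above Grik2 in 8 libraries by FPKM and in 4 per coding length. Grid1, a delta receptor that acts as a synaptic organiser, ran from 19.8 to 32.5 CPM.

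**Figure D3:**
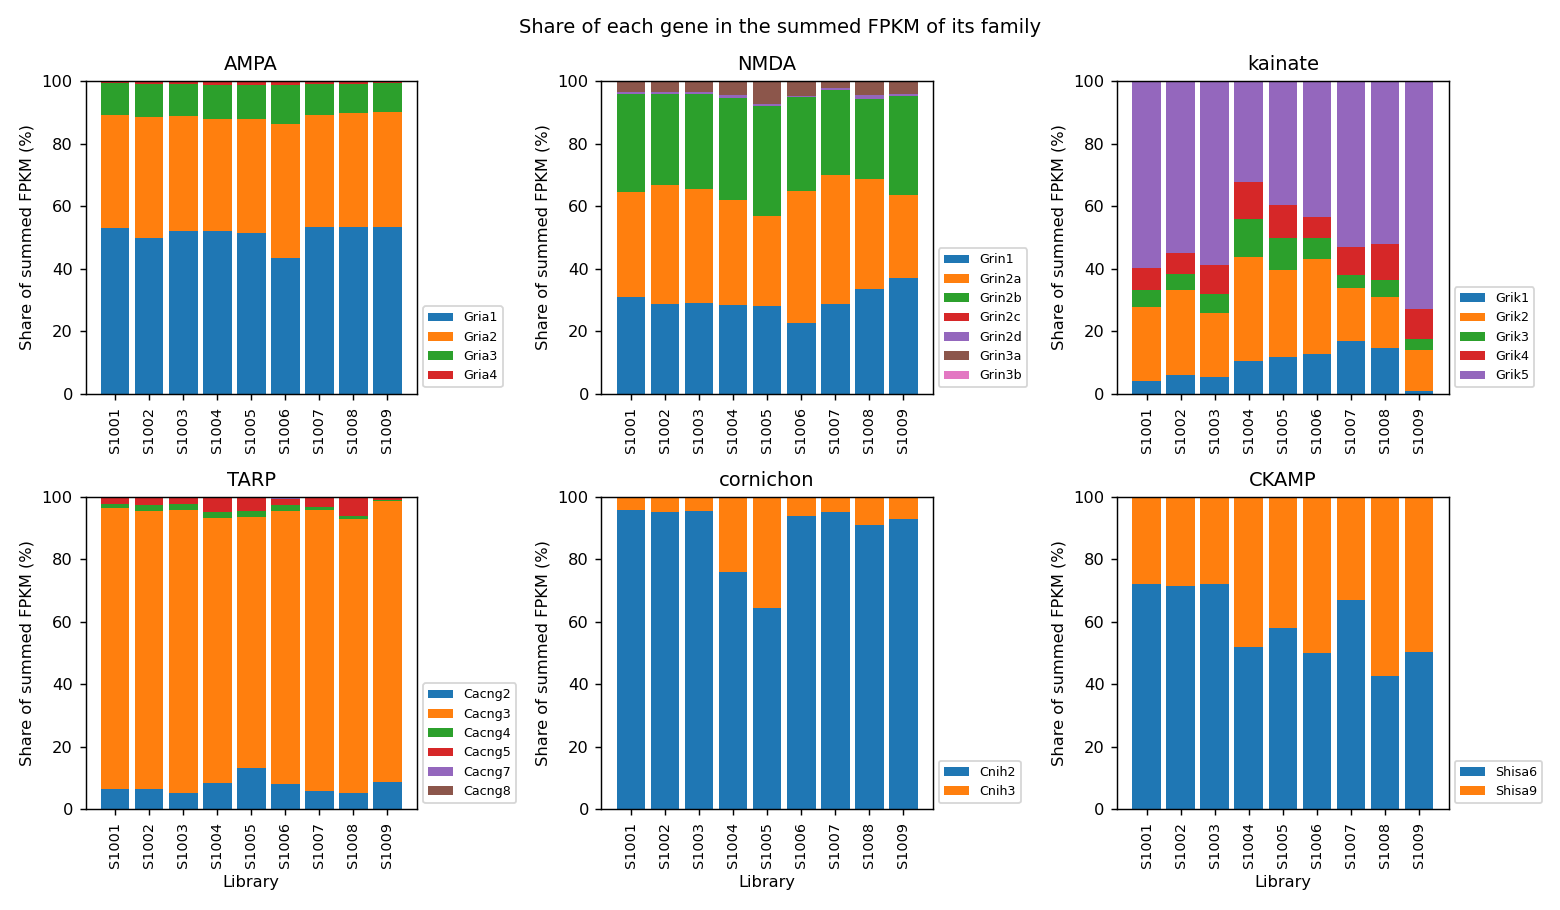
Share of each gene in the summed FPKM of its family, as stacked bars for S1001 to S1009 in 6 panels (y axis in percent). The AMPA bars look alike except for S1006, Grik5 takes 32.2% to 72.8% of the kainate bars, and the Cnih3 part of the cornichon bars is large in S1004 and S1005.

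Among metabotropic receptors, Grm5 was the most abundant and among the most even. Grm5 codes for mGlu5, a group I receptor that couples to phospholipase C. It measured 299, 320.3, 318, 311, 323, 435, 242, 295 and 273 CPM in S1001 to S1009, with a spread of 0.24. Here S1006 stood highest and S1007 lowest. Grm5 made up 57.6% to 72.1% of the FPKM of the 7 metabotropic genes listed. Grm7, a presynaptic group III receptor, was as even, at 28.0 to 44.7 CPM and a spread of 0.24.

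The group II receptor Grm2, known from dentate granule cells and their mossy fibres, was uneven. It measured 17.6, 13.4, 14.6, 31.5, 24.5, 22.2, 15.5, 36.6 and 10.5 CPM in S1001 to S1009, with a spread of 1.17. S1004 and S1008 were highest and S1009 lowest, and leaving out S1004 or S1008 lowered the spread to 0.82. Without S1002 and S1003 together the spread was 0.98. The dentate granule list summed to 319, 359.6, 337, 385, 383, 415, 336, 502 and 440.5 CPM (7 of 7 found, Dsp at 0 in a library). Calb1, also made by other neurons, carried most of this sum, with 405 of the 440.5 CPM in S1009. Prox1, another marker on the list, measured 12.5, 12.4, 11.1, 14.4, 3.52, 14.4, 1.75, 26.0 and 4.25 CPM, and C1ql2 measured 36.1 CPM in S1008 and 2.28 CPM in S1009. Prox1 and C1ql2 were thus highest in S1008 and low in S1009, as Grm2 was, but they were also low in S1005, where Grm2 was not. Dock10, Dsp and Plekha2 were lower in S1009 than in S1008 too, yet Dock10 was highest in S1002 and Plekha2 in S1001. Lct went the other way, at 26.6 CPM in S1009 and 15.8 CPM in S1008, and Calb1 was highest in S1009. The part of granule cells in the Grm2 levels was not tested, and 9.6% of the Grm2 exon bases overlap another gene. Grm3, the other group II gene, also expressed by glia, ran from 8.81 to 16.7 CPM with a spread of 0.71. By FPKM Grm2 stood above Grm3 in 3 libraries, and per coding length in 8.

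A pair of group III genes was uneven at low levels. Grm8 measured 4.92, 4.30, 4.19, 9.05, 7.31, 9.38, 1.35, 5.91 and 1.79 CPM in S1001 to S1009. S1004 and S1006 were highest for Grm8 and S1007 and S1009 lowest, with a spread of 1.85, or 3.61-fold. Leaving out S1007 or S1009 lowered it to 0.95. Grm4 measured 4.34, 3.46, 3.96, 7.00, 6.62, 2.98, 8.28, 5.67 and 1.91 CPM, on 31 to 133 counts, with a spread of 1.01. It fell below 2-fold without S1004 or S1007 (0.94) and without S1006 or S1009 (0.84). Grm8 and Grm4 took different libraries to their extremes, since S1007 was highest for Grm4 and lowest for Grm8. Grm6, the receptor of retinal bipolar cells, had at most 2 counts in a library.

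Cacng3 had the highest level of the TARP genes as counted here. It codes for the TARP gamma-3 and measured 159.6, 152, 168, 125, 67.6, 97.5, 195, 180.2 and 117 CPM in S1001 to S1009. S1005 was lowest and S1007 highest, and the spread was 0.88. Cacng3 held 80.2% to 90.7% of the summed TARP FPKM. Cacng2, which codes for stargazin, was even, at 18.2 to 25.8 CPM and a spread of 0.36. Cacng8 codes for gamma-8, a TARP known from the hippocampus, and had 0 to 11 counts per library and at most 0.656 CPM. Its gene model spans 2345 exon bases, of which 1269 are coding, and the cause of the low count was not tested. The rank of Cacng3 and its share of the TARP FPKM rest on this Cacng8 count. Cacng7 had at most 4 counts in a library.

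Cacng5, known to mark CA2 pyramidal cells, was the uneven TARP gene. It measured 4.34, 5.15, 5.41, 8.84, 5.17, 3.34, 9.62, 17.0 and 1.29 CPM in S1001 to S1009, with a spread of 1.29. S1008 stood highest with a 95% Poisson interval of 15.1 to 19.1 CPM, and S1009 lowest with 0.801 to 1.98 CPM. Leaving out S1006 or S1009 lowered the spread to 0.99. The CA2 list summed to 252, 244, 253, 342, 339, 285, 297, 414 and 315 CPM (5 of 5 found, Map3k15 and Ntf3 at 0 in a library), highest in S1008 as well. Its main members differed: Rgs14 was highest in S1009, at 263 CPM, where Cacng5 was lowest, and Pcp4 was highest in S1004, at 199 CPM, and lowest in S1009, at 50.7 CPM. Their part in the Cacng5 levels was not tested. Cacng4, a TARP also found in glia, measured 3.28, 4.30, 4.12, 3.58, 2.21, 2.47, 2.09, 2.62 and 0.308 CPM. Markers of oligodendrocyte precursor cells summed to 91.6, 96.6, 91.7, 19.2, 17.1, 14.4, 4.31, 6.64 and 0.863 CPM, also highest in S1002 and lowest in S1009 (7 of 7 found, Pdgfra, Cspg4, Olig2 and Gpr17 at 0 in a library). Olig2, Sox10 and Vcan were highest in S1002, but Cspg4 and Olig1 in S1001, and Pdgfra and Gpr17 in S1003. The Poisson interval of Cacng4 in S1002, 3.25 to 5.59 CPM, takes in its S1001 and S1003 levels. From S1003 to S1004 the marker sum went from 91.7 to 19.2 CPM, and Cacng4 from 4.12 to 3.58 CPM. The part of these precursor cells in the Cacng4 levels was not tested.

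The cornichon genes differed in where they were low, and Cnih2 had the greatest spread of the 29 genes. Cnih2, at chr19:5092868-5098521 on the minus strand (mm10), codes for a protein that slows the deactivation of AMPA receptors in hippocampal neurons. Its level was 961, 824, 905, 229, 207, 903, 1354, 1133 and 1327 CPM in S1001 to S1009. S1004 and S1005 stood apart at 229 and 207 CPM, and the other 7 libraries lay between 824 and 1354 CPM. The spread was 2.53, or 5.77-fold, on 3002 to 21532 counts per library. It rests on those 2 libraries together, since leaving out either S1004 or S1005 lowered it to 0.69. The excitatory marker sum was low in S1004, S1005 and also S1006, whereas Cnih2 measured 903 CPM in S1006. The part of cell composition in the Cnih2 levels was not tested.

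Cnih3, at chr1:181352628-181460641 on the plus strand, codes for a related protein that also slows AMPA receptors. It measured 93.1, 96.1, 94.9, 163, 255, 134, 159, 247 and 232 CPM. S1001, S1002 and S1003 were the 3 lowest and S1005 the highest. The same 3 libraries had the highest sums of microglia and oligodendrocyte markers, given above. Those sums were lower again in S1007 to S1009 than in S1004 to S1006. Cnih3 overlapped between these libraries, at 159 to 247 CPM in S1007 to S1009 and 134 to 255 CPM in S1004 to S1006. The part of microglia and oligodendrocytes in the Cnih3 levels was not tested. In S1007 to S1009 both genes were higher than in S1001 to S1003, and in S1004 and S1005 Cnih3 was higher and Cnih2 lower. The spread was 1.37, or 2.59-fold, and 0.88 when S1002 and S1003 were left out together. The FPKM ratio of Cnih2 to Cnih3 was 23.0, 19.1, 21.2, 3.13, 1.80, 15.0, 19.0, 10.2 and 12.7 in S1001 to S1009. S1005 held both the highest Cnih3 level and the lowest Cnih2 level. Cnih2 still had the higher FPKM in 9 of 9 libraries, with 64.3% to 95.8% of the pair. Per coding length it was the higher in 8, and S1005 was the exception. The summed cornichon level ran from 392 CPM in S1004 to 1559 CPM in S1009.

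The promoters of the cornichon pair are shown because these related genes differed in where they were low. Each line gives 250 bases before to 50 after a start site, from the RefSeq table on GRCm38.p6, 5′ to 3′ on the gene's strand. Capitals mark GC boxes, searched as GGGCGG on both strands. The windows are chr19:5098472-5098771 on the minus strand for Cnih2 and chr1:181352378-181352677 on the plus strand for Cnih3.
Cnih2: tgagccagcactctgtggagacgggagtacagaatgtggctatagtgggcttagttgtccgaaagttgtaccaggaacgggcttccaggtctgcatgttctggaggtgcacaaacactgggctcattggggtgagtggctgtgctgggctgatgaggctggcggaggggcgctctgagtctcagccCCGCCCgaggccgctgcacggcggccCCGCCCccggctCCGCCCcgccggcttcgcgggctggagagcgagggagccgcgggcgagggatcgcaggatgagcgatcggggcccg
Cnih3: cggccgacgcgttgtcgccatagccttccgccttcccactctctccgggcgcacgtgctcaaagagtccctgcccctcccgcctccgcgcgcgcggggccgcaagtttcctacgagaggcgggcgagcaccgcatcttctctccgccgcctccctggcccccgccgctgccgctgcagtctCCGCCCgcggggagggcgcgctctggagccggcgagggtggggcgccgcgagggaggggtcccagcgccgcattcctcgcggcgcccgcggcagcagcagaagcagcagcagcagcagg
The Cnih2 window held 3 GC boxes and 25 CpG dinucleotides, and the Cnih3 window 1 GC box and 42 CpG dinucleotides. The median over the 32851 promoters in the table was 7 CpG dinucleotides. Of the 34 genes, 22 had a promoter in the table, and 13 of these 22 held a GC box, against 38.2% of 27025 genes. TGACGTCA, the cyclic AMP response element, was found in 0 of the 22 and in 2.03% of all genes. TATAAA was found in Grin3b and in 15.67% of all genes. A match describes the letters of a window and shows no binding.

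**Figure D4:**
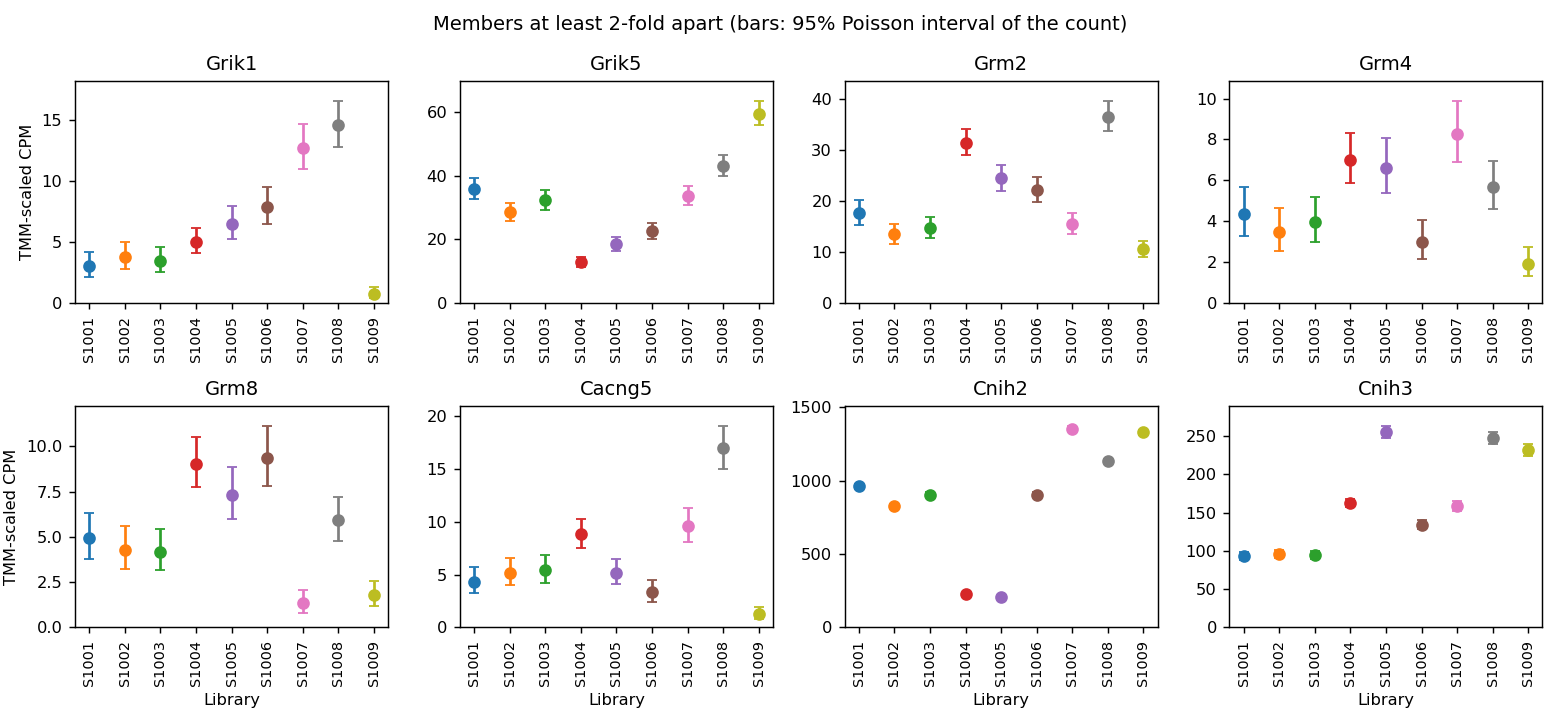
The 8 uneven genes in S1001 to S1009 (x axis, library; y axis, TMM-scaled CPM, own scale in each panel from 0). Points are libraries and bars are exact 95% Poisson intervals of the counts, narrower than the points for Cnih2; S1004 and S1005 lie far below the other libraries for Cnih2, and S1009 is lowest for Grik1, Grm2, Grm4 and Cacng5.

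The CKAMP genes stayed under 2-fold but differed in order. Shisa6, which limits AMPA receptor desensitisation, measured 72.4, 76.8, 77.9, 61.2, 39.6, 54.4, 72.3, 42.2 and 61.8 CPM in S1001 to S1009. Shisa9, which codes for CKAMP44, measured 19.1, 20.9, 20.7, 39.0, 19.7, 37.0, 24.5, 38.6 and 41.9 CPM. Their spreads were 0.85 and 0.95. The FPKM ratio of Shisa6 to Shisa9 lay between 2.52 and 2.59 in S1001, S1002 and S1003 and between 0.747 and 2.02 in the other libraries. In S1008 Shisa9 exceeded Shisa6, by FPKM and per coding length.

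Over the 29 genes, S1007 was the highest library for 9 (31.0%), among them Gria1, Gria2, Gria3, Grin2a, Cacng3 and Cnih2, and S1008 for 7 (24.1%). Over all 14787 genes at 1 CPM or more, S1007 was highest for 17.2% and S1008 for 13.6%. S1009 was the lowest for 8 of the 29 (27.6%), among them Gria4, Grik1, Grm2, Grm3, Grm4 and Cacng5, against 20.0% of all genes with a single lowest library. S1005 and S1006 were each lowest for 6 (20.7%), against 11.5% and 13.7% of those genes. S1007 was lowest for 5 (17.2%), against 11.4%, and S1008 for 0, against 9.41%. S1009 was also the library with the fewest genes counted, 17906, and the part of this in the low values was not tested. These shares were not tested against those of all genes.

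A list of 37 partner genes, comprising scaffolds, other auxiliary proteins, assembly and trafficking factors and RNA editing enzymes, was described the same way. Each had a mean of at least 1 CPM, and 6 of the 37 (16.2%) were uneven against the 26.4% of all genes, with a median spread of 0.57. The most abundant per length were Nsf, an ATPase that binds the Gria2 product, at a median of 120.3 FPKM, and Abhd6, a hydrolase that limits AMPA receptor delivery, at 96.6 FPKM. Among the uneven genes were Adarb2, Neto1, Neto2, Cpt1c and Gsg1l. Neto1 and Neto2 code for auxiliary subunits of kainate receptors and had opposite extremes in part. Neto1 measured 24.2, 24.7, 22.3, 49.1, 65.4, 62.1, 36.8, 42.7 and 28.3 CPM in S1001 to S1009, with a spread of 1.33. Neto2 measured 73.3, 87.4, 76.5, 37.4, 37.2, 64.8, 100.2, 54.0 and 52.5 CPM, with a spread of 1.20. S1005 was highest for Neto1 and lowest for Neto2. The Neto1 spread was 0.99 without S1005 or S1006, and the Neto2 spread 0.72 without S1004 or S1005. The Gsg1l spread, 1.04 with every library, was 0.44 without S1007 or S1009.

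Adarb2, which codes for an editing enzyme relative without known editing activity, had the greatest spread of the partners. It measured 6.80, 4.69, 5.79, 24.0, 16.4, 20.7, 13.7, 20.4 and 16.3 CPM in S1001 to S1009, with a spread of 1.68. S1001, S1002 and S1003 were lowest, as they were for the inhibitory marker sum, and without S1002 and S1003 together the spread was 0.57. Members of the inhibitory list differed. Gad1, Gad2, Slc32a1, Dlx1, Lhx6, Erbb4 and Cnr1 were also lowest in S1001 to S1003, but Vip, Npy, Sst and Pvalb were not. Vip was lowest in S1008, at 0.305 CPM, Npy in S1005, at 45.4 CPM, and Sst in S1009, at 81.0 CPM. The part of inhibitory neurons in the Adarb2 levels was not tested. Adarb1, the enzyme that edits the Gria2 codon shown above, was even at 17.1 to 24.5 CPM, with a spread of 0.49. Dlg4, which codes for the scaffold PSD-95, ran from 5.97 to 14.4 CPM. Dlg4 is known as an abundant transcript of hippocampal neurons, and the cause of the low count was not tested, as for Cacng8. Its spread of 1.00 lay just under the threshold.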

How the data were processed

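RNA-seq libraries of sorted hippocampal cells were used as deposited. Per the file headers, each table holds a count per gene, and FPKM values that the authors deposited beside it. The counts were assumed to be raw read counts. The submitters' processing notes list HTSeq 0.6.1, HISAT2 2.0.1, Trimmomatic 0.30, bcl2fastq 2.17.1.14 and mm10. Their roles, the strand setting and the gene annotation were not given in the sources used here. Symbols came from GENCODE M21, which held 51633 (99.46%) of the identifiers.

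The 9 libraries have no dose in their labels, and 0 were given a group. A letter in the table headers was not used for this. No test over libraries was made. Counts were scaled to CPM with TMM (edgeR 4.0.16, R 4.3.3), with a pseudocount of 1 CPM, a minimum mean of 1 CPM and a threshold of 2-fold. Shares used the deposited FPKM. Pairs of libraries were compared with a chi-square test of genes whose counts summed to 10 or more. Calculations used Python 3.11.15, pandas 2.3.3, numpy 2.4.6 and scipy 1.17.1, and were tested on simulated data. Plots used matplotlib 3.10.9.

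Depth limits the low genes: 3 counts equal 0.158 to 0.246 CPM. The members and the lists were chosen with earlier results of these data known. Every member is reported. Of the partners, the rule named the 2 most abundant per length and the 5 of greatest spread, of which 1 is not reported here. The rule also listed Adarb1, Adar and Dlg4 by name, and Adar is not reported here. Gsg1l was named outside the rule. Gsg1l, Adarb1 and Dlg4 were named after their values were seen. Alternatives were library totals, totals with mitochondrial genes left out, size factors from DESeq2 1.42.0, other pseudocounts and minimums, the full range, other lengths and leaving out libraries. A planned comparison of protein sequences was not run, and coding bases are shown in its place.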

Additional observations from a re-analysis of the deposited data

How the results depend on the processing

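Of 464 spread values recomputed under the alternatives, 434 stayed on the same side of 2-fold, and 15 of 29 genes did so under every setting run. The count of 8 uneven genes became 5 with a pseudocount of 5 CPM (13.2% of all genes) and 15 with the highest against the lowest library (52.6%). It became 4 with a minimum of 10 CPM (18.3%), and 4 to 8 leaving out each library in turn (21.6% to 24.8%). It was 4 without S1004 and 4 without S1009. Without both S1002 and S1003, a setting added once the data had been seen, it was 6 (19.6%). The count of 6 uneven partners, of 37, became 20 with the highest against the lowest library, against 52.6% of all genes. It was 2 without S1002 and S1003, against 19.6%, and 4 to 6 leaving out each library, against 21.6% to 24.8%. Of 396 shares, 376 stayed within the range over libraries. By counts without a length, Gria1 had a median share of 32.0%, Gria2 57.6%, Grin1 16.1% and Grin2b 43.4%. By coding length, also chosen after seeing the data, Gria1 had 31.4%, Gria2 58.1% and Grin2b 39.4%. Leaving out each library gave median shares of 52.1% to 52.6% for Gria1 and 36.4% to 36.6% for Gria2. No paired analysis was possible because no library has a group. Grin2c, Grin3b, Grm6, Cacng7 and Cacng8 stayed under a mean of 1 CPM, with at most 11 counts in a library. Their spreads were not read, and the cause of the low counts was not tested.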
